A study of Mus musculus with 12 samples.

Results

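The genes described are the nuclear-encoded genes of the mitochondrial respiratory chain and ATP synthase in mouse bone marrow macrophages. Members were the protein-coding rows whose symbol begins with Ndufa, Ndufb, Ndufc, Ndufs, Ndufv, Uqcr, Cox4 to Cox8 or Atp5, or equals Sdha, Sdhb, Sdhc or Sdhd. The rule uses names only and no measured value. It found 94 of the 54532 genes in the count table, with 44 in complex I, 4 in complex II, 8 in complex III, 20 in complex IV and 18 in complex V. Ndufaf1 to Ndufaf8, which help to build complex I but are not part of it, follow the rule by their names and are given separately. Atp5o stands for 2 gene IDs, so the members carry 93 symbols.

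RNA-seq was performed on 12 libraries in 4 groups of 3. Macrophages were grown from bone marrow (tibial in the labels, femoral and tibial in the study's methods) of wild-type C57BL/6J mice 2 to 3 months old, with CSF-1 at 12 and then 120 ng/ml, and all groups share this background. They were passaged onto plates with no coating or with fibronectin (10 µg/ml, a unit that the labels write as µm/ml) and then kept for 24 h with 10 µg/ml of IgG or of an anti-ITGA5 neutralizing antibody. The groups are called uncoated IgG, uncoated anti-ITGA5, fibronectin IgG and fibronectin anti-ITGA5. The study describes its 3 samples per group as biologically independent experiments, while the labels do not say which animals or cultures they came from. The antibody blocks a receptor and leaves its gene in place, and Itga5 itself was measured at 44.5 to 53.1 FPKM over the 12 libraries.

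The respiratory chain sits in the inner mitochondrial membrane. Complex I takes electrons from NADH and complex II from succinate, coenzyme Q hands them to complex III, cytochrome c carries them to complex IV, and complex IV passes them to oxygen. The proton gradient that complexes I, III and IV build drives ATP synthase, or complex V. Most subunits are made from nuclear genes, while a small core of complexes I, III, IV and V is encoded in mitochondrial DNA. In macrophages the balance between respiration and glycolysis is known to shift with activation state, which is why these genes are often read as a group.

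The libraries held 12954342 to 22075432 counts on genes, and the members took 0.705% to 0.812% of them. Macrophage markers were high in all libraries (Csf1r 269 to 333 FPKM, Adgre1 155 to 184 FPKM). The summed level of the 9 macrophage markers was lower with the antibody, at 9000 to 9840 FPKM in uncoated IgG, 6150 to 7540 FPKM in uncoated anti-ITGA5, 9580 to 9780 FPKM in fibronectin IgG and 7360 to 7530 FPKM in fibronectin anti-ITGA5. Lyz2 (4560 to 7990 FPKM) made up most of this sum, so the sum mainly follows that gene. Over the 12 libraries Cd68 was at 929 to 1180 FPKM, Cd14 at 96.8 to 146 and Itgam at 38.3 to 61.6. Fcgr1 was at 24 to 49.3 FPKM, Mertk at 15.8 to 25.5 and Ptprc at 19.8 to 22.3. The part of this shift in the members' values was not tested, and in bulk RNA fewer cells of a type and less RNA per cell cannot be told apart. The 7 fibroblast markers summed to at most 0.447 FPKM, the 8 neutrophil markers to at most 4.53 FPKM, the 4 dendritic markers to at most 0.225 FPKM and the 4 lymphoid markers to at most 0.103 FPKM. Of the 6 erythroid and megakaryocyte markers, Pf4 was at 358 to 692 FPKM, while Hba-a1 and Hbb-bs were at or below 0.0945 FPKM.

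One library stood apart before any comparison was made. Uncoated anti-ITGA5 replicate 2 had the lowest depth (12954342 counts) and the most genes with a count (21123, against 19542 to 20426 elsewhere). Its counts differed from those of its fellows by a chi-square per gene of 13.7 and 23, whereas pairs in the other 3 groups differed by 2.65 to 7.45. Replicates 1 and 3 of the same group differed by 10.4, so they too were further apart than any pair elsewhere. Of the 88 members tested in that comparison, 81 had their lowest FPKM of the group in this library and 59 had their lowest FPKM of all 12 libraries there. The members took 0.705% of its counts and 0.808% and 0.794% in replicates 1 and 3 of the same group. The main counts on uncoated dishes are therefore given with and without it. Whether its depth or makeup bears on the members was not tested.

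Promoter sequences of 4 members are shown because they hold, or lack, the motifs of factors known to drive nuclear genes of mitochondria. The motifs are the palindrome bound by NRF1, the letters CCGGAAG bound by the ETS factor GABP, and the YY1 motif that often lies just after a start. Each window runs from 250 bases before to 50 bases after the annotated start (RefSeq, GRCm38.p6). Uqcrc1, Ndufaf8 and Ndufa1 are shown because they were called upon ITGA5 neutralization on fibronectin. Cox6a1 is shown because it was among the members with the highest level and carries both an NRF1 and an ETS motif. Capitals mark these 3 motifs on either strand, and none of them overlap in these windows. The NRF1 motif is the capital run in Uqcrc1, and the YY1 motif is the capital run nearest the 3′ end in Ndufaf8.
Uqcrc1 promoter, chr9:108936398-108936697, plus strand: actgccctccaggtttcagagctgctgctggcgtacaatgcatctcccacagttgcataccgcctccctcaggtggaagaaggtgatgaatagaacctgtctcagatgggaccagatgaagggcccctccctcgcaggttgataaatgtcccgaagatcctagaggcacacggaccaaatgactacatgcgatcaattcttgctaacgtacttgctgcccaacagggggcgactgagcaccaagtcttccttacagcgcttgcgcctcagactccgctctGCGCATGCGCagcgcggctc
Ndufaf8 promoter, chr11:120098684-120098983, plus strand: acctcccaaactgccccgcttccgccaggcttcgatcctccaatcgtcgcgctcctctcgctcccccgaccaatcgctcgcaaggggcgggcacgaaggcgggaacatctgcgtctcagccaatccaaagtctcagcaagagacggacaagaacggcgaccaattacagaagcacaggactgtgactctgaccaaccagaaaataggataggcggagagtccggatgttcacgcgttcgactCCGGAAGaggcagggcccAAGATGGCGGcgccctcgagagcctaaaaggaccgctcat
Cox6a1 promoter, chr5:115348909-115349208, minus strand: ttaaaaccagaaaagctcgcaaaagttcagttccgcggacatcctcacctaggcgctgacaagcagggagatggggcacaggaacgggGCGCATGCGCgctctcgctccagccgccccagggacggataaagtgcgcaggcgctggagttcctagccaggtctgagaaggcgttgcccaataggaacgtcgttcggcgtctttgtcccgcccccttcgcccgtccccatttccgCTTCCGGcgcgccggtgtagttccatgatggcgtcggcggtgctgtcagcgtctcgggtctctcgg
Ndufa1 promoter, chrX:37191189-37191488, minus strand: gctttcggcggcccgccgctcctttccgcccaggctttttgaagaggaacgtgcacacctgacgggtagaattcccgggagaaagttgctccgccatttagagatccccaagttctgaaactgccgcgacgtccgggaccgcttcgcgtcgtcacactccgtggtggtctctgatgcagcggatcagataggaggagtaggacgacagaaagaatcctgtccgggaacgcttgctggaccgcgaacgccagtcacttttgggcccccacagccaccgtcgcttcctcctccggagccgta

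The Uqcrc1 window held 1 NRF1 motif after the start, Ndufaf8 held an ETS and a YY1 motif, Cox6a1 held an NRF1 and an ETS motif, and Ndufa1 held none of the 3. A promoter was matched for 76 members. Each of them has 1 window here, the one with its start nearest the 5′ end of the gene's row. The comparison set holds every window of the table, where a gene can have more than 1, as 5 members did. Both strands were searched. The NRF1 letters were in 7 of the 76 windows (9.21%), against 0.971% of the 32851 windows in the table. The ETS letters were in 17 (22.4%, against 8.86%), and the YY1 letters in 5 (6.58%, against 0.852%). Letters bound by the estrogen-related receptors, AAGGTCA, were in 8 (10.5%, against 4.72%). The hypoxia response core ACGTGC was in 4 (5.26%, against 5.91%), and the TATA box letters TATAAA were in 7 (9.21%, against 13.6%). The median GC content was 57.8% in the members' windows and 52.7% in all windows, and its part in these shares was not tested. Of the members called upon ITGA5 neutralization on fibronectin and matched to a window, only Uqcrc1 held the NRF1 letters. Among the same members only Ndufaf8 held the ETS or the YY1 letters. Whether members with a motif were called more often than those without was not tested.

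**Figure D1:**
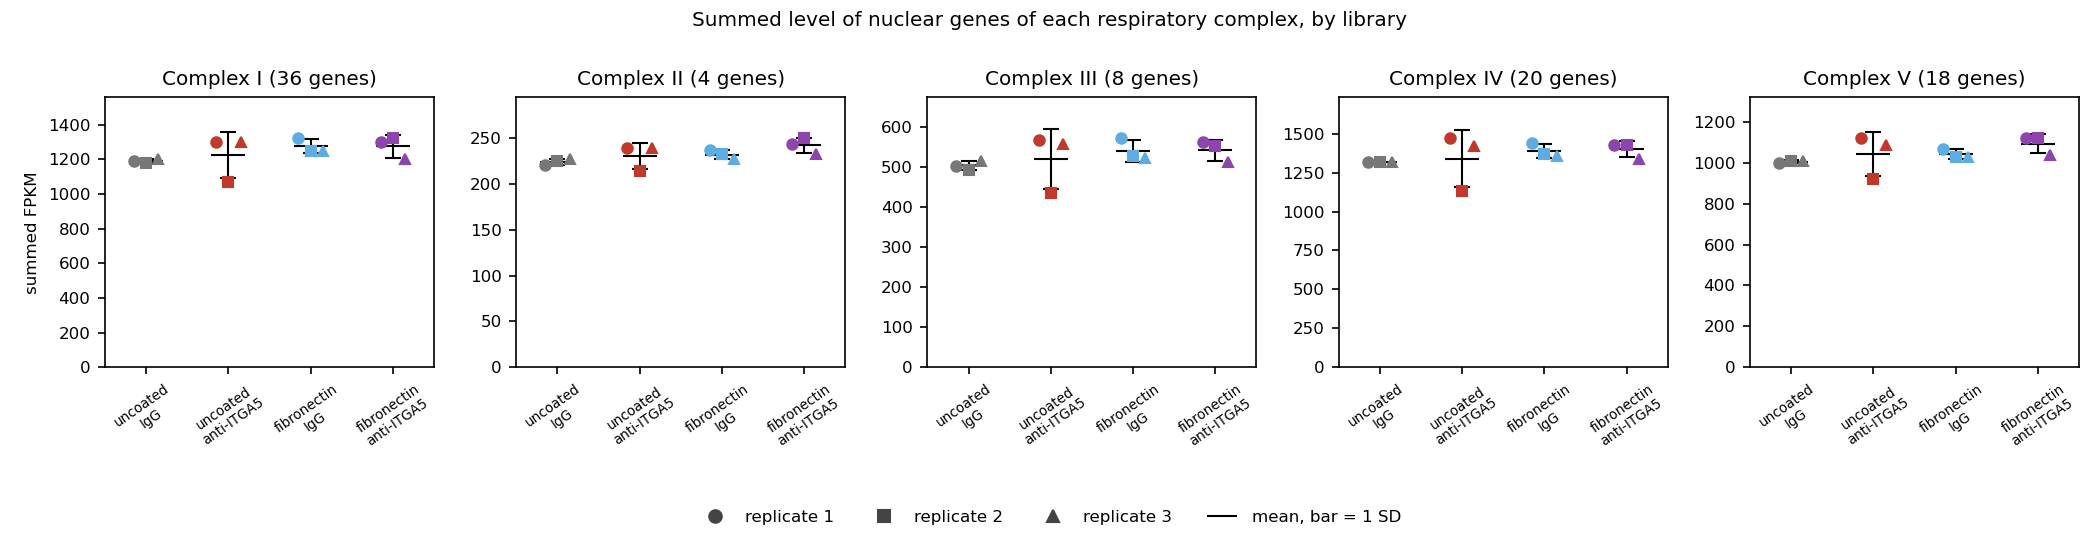
Summed FPKM of the nuclear genes of each complex (y axis) in the 4 groups (x axis), with 1 point per library, a line at the mean and bars of 1 SD; the Ndufaf assembly factors are left out of complex I. Uncoated anti-ITGA5 replicate 2 is the lowest point in each of the 5 panels, and in complex I the other 11 libraries lie between 1180 and 1320 FPKM.

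The levels of the members differed over a wide range between genes. FPKM, which divides counts by gene length, is used to compare genes. Averaged over the 12 libraries, the highest members were Cox8a (243 FPKM), Cox6a1 (232 FPKM), the ATP synthase alpha subunit Atp5a1 (223 FPKM) and its catalytic beta subunit Atp5b (196 FPKM). The 7 core subunits of complex I had a median of 32.5 FPKM, its 29 supernumerary subunits 33.2 FPKM and its 8 assembly factors 5.81 FPKM. The median was 56.3 FPKM in complex II, 59 FPKM in complex III, 38.4 FPKM in complex IV and 43.4 FPKM in complex V.

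The sum over complex I, without the assembly factors, was 1190 ± 11.1 FPKM (SD, n = 3) in uncoated IgG and 1220 ± 132 FPKM in uncoated anti-ITGA5. It was 1280 ± 41.7 FPKM in fibronectin IgG and 1270 ± 61.1 FPKM in fibronectin anti-ITGA5. In single libraries the sum was 1190, 1180 and 1200 FPKM in uncoated IgG, 1300, 1070 and 1300 FPKM in uncoated anti-ITGA5, 1320, 1250 and 1250 FPKM in fibronectin IgG, and 1300, 1320 and 1200 FPKM in fibronectin anti-ITGA5. The SD in uncoated anti-ITGA5 came from replicate 2, and the other 2 libraries of that group lay above all 3 libraries of uncoated IgG. The same held for complexes II, III, IV and V in the plot of summed levels. On fibronectin the antibody groups overlapped for complex I.

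Subunits that come as alternative isoforms were dominated by the form known from most tissues. Cox4i2, the form of subunit 4 associated with low oxygen, made up 0.58% to 1.43% of the FPKM of Cox4i1 and Cox4i2 together. The heart and muscle forms Cox6a2 and Cox7a1 made up 3.58% to 6.15% and 4.7% to 8.24% of their pairs with Cox6a1 and Cox7a2. Cox6b2, a testis form, made up 0.2% to 0.512% of its pair with Cox6b1. The 3 genes for the c-ring subunit of ATP synthase, which encode the same mature protein, were all used, with Atp5g1 at 13.7% to 16.3%, Atp5g2 at 31.5% to 34.5% and Atp5g3 at 50.7% to 53.2% of their sum. With all libraries, the only gene of these sets called in any comparison was Cox7a2l, taken beside Cox7a1 and Cox7a2. Ranges are over the 12 libraries.

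Cox7b2, Cox8c and the second ID of Atp5o had no count in any library, which for Cox7b2 and Cox8c allows at most 3 counts per library. The exon bases of the second Atp5o ID lie within Donson (54.2%) and the first Atp5o ID (45.8%) on the same strand, so its count of 0 sets no limit on its level. Ndufa4l2, a hypoxia-induced relative of Ndufa4, had 0 to 2 counts and Cox8b 0 to 4. These 5 were tested in no comparison. Cox6b2, with 6 to 19 counts, fell just outside the low-count filter on uncoated dishes and just inside it in the other comparisons. Cox4i2, with 13 to 34 counts, lay just inside in all of them.

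The question of the first comparison was whether blocking ITGA5 changed these genes in macrophages on uncoated dishes. Ndufs1 rose, Ndufb2 and Cox7a2l fell, and the other 85 of the 88 members tested were not called. The 3 called members are 3.41% of those tested, against 20.8% of the 12924 genes tested, of which 9.79% were lower (edgeR's quasi-likelihood test, called at a Benjamini-Hochberg adjusted p of 0.05 or less over all genes). The median log2 fold change was 0.065 in the members and 0.0090 in all genes, and 61 members had a value above 0 and 27 below 0. The median size of the change was 0.094 on the log2 scale in the members and 0.17 in all genes. For 83 of the 88 the 95% interval of the log2 fold change lay within 0.5 of 0, and for 37 it lay within 0.25.

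Ndufs1 (chr1:63143596-63176833, GRCm38, minus strand) encodes the largest subunit of complex I, which carries iron-sulphur clusters near the site of NADH oxidation. Its level was 10.4, 9.62 and 10.1 FPKM in uncoated IgG and 12.9, 11.3 and 12.4 FPKM in uncoated anti-ITGA5. The 2 groups did not overlap. The log2 fold change was 0.29 (SE 0.059, adjusted p = 0.00658, edgeR), and it stayed called when any 1 of the 6 libraries was left out. Ndufs1 shares exon bases with Ino80dos and Eef1b2 on the opposite strand (6.05% and 0.111% of its exon bases), and the strand setting of the counting is not given in the sources used here.

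Ndufb2 (chr6:39592574-39603382, plus strand), an accessory subunit of the membrane arm, was at 0.884, 1.16 and 1.01 FPKM in uncoated IgG and at 0.638, 0.748 and 0.702 FPKM in uncoated anti-ITGA5. The groups did not overlap, and the log2 fold change was -0.55 (SE 0.17, adjusted p = 0.0422, edgeR). The level of Ndufb2 was far under that of the other complex I subunits, with 58 to 115 counts over the 12 libraries and a gene length of 5628 bases. It shares exon bases with Gm42420 on its own strand and with Braf and Gm16272 on the other. What these overlaps do to its counts was not tested, so its level may not be that of the gene. Cox7a2l (chr17:83501919-83514333, minus strand) has been described as a factor of supercomplexes of complexes III and IV, and its function in these mice was not measured. It was at 76.6, 80.3 and 78.4 FPKM in uncoated IgG and at 71.6, 62.6 and 70.8 FPKM in uncoated anti-ITGA5, without overlap, with a log2 fold change of -0.19 (SE 0.059, adjusted p = 0.042, edgeR). Leaving out any of the 3 uncoated IgG libraries, or uncoated anti-ITGA5 replicate 1 or 3, ended the call of Ndufb2 (adjusted p = 0.0578, 0.166, 0.113, 0.136 and 0.0817 in that order) and of Cox7a2l (adjusted p = 0.107, 0.144, 0.122, 0.069 and 0.0627).

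Without uncoated anti-ITGA5 replicate 2, 34 members were called higher and 2 lower of 88 (40.9%, edgeR). In the same fit 29.1% of 13161 genes were called, 15.1% higher. This library was set apart partly by the members' own low values in it, so leaving it out raises them by construction, and the higher count is no independent evidence of a rise. The median log2 fold change of the members was then 0.133, with 77 values above 0. The genes called higher were 14 of 44 in complex I, 2 of 4 in complex II, 3 of 8 in complex III, 7 of 15 in complex IV and 8 of 17 in complex V. With 2 libraries left in the antibody group, their spread is estimated together with that of the IgG libraries. The 2 members called lower were again Ndufb2 and Cox7a2l.

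In that fit the log2 fold change of Ndufs1 came to 0.33 (adjusted p = 0.000213, edgeR). In complex II the flavin subunit Sdha had 0.14 (adjusted p = 0.011) and the membrane anchor Sdhc had 0.15 (adjusted p = 0.0284). Uqcrq, a small subunit of complex III, had the largest rise, 0.35 (adjusted p = 0.000209). In complex IV, Cox5b had 0.23 (adjusted p = 0.00174) and Cox4i1, an early building block of the complex, had 0.13 (adjusted p = 0.0187). In complex V, Atp5b had 0.16 (adjusted p = 0.00367) and Atp5a1 had 0.12 (adjusted p = 0.0307).

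The levels of Atp5b show how the library enters. They were 184, 184 and 185 FPKM in uncoated IgG and 209, 181 and 205 FPKM in uncoated anti-ITGA5, so that replicates 1 and 3 were above and replicate 2 was below all IgG libraries. In the full comparison its log2 fold change was 0.11 (SE 0.057, adjusted p = 0.203, edgeR). Sdha followed the same order, with 64.4, 63.8 and 63.5 FPKM in uncoated IgG and 69.3, 62.5 and 71.6 FPKM in uncoated anti-ITGA5.

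**Figure D2:**
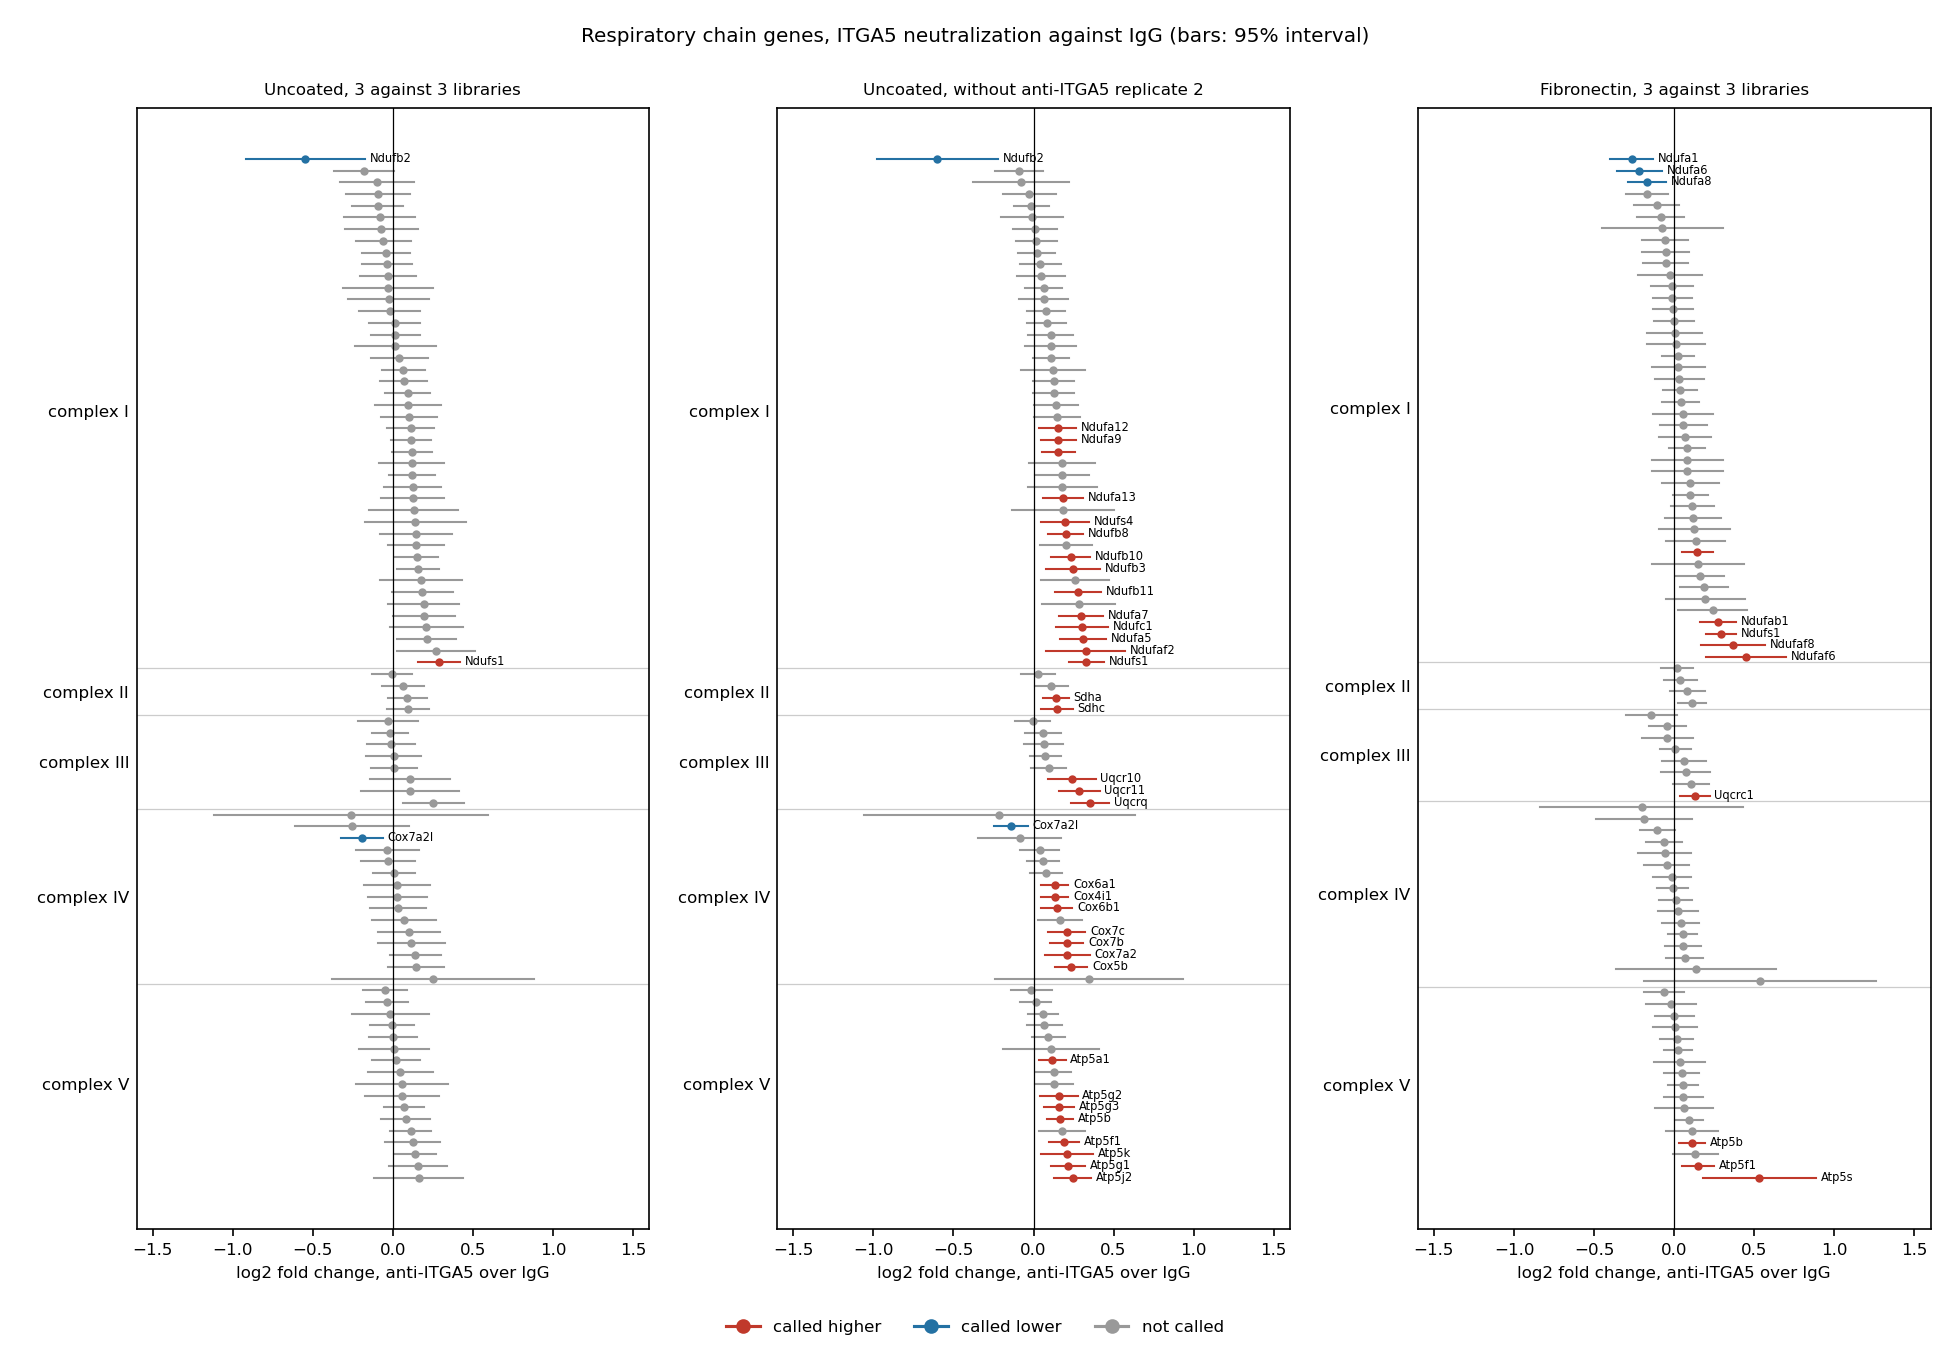
Log2 fold change of anti-ITGA5 over IgG (x axis) for each tested member, ordered by complex and then by value (y axis), with 95% intervals from edgeR; red is called higher, blue called lower and gray not called. The left panel has 3 called members, the middle panel, without uncoated anti-ITGA5 replicate 2, has 36, and the right panel, on fibronectin, has 12.

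The same question was asked on fibronectin, the matrix ligand of ITGA5. There 9 members rose and 3 fell upon ITGA5 neutralization, and the other 77 of 89 were not called. The 12 called members are 13.5% of those tested, against 27.6% of 12916 genes, of which 13.2% were lower and 14.4% higher. The median log2 fold change was 0.040 in the members and -0.0038 in all genes, and 61 members had a value above 0. The 95% interval lay within 0.5 of 0 for 83 of the 89 members and within 0.25 for 60. By complex, 5 of 44 rose and 3 fell in complex I, 1 of 8 rose in complex III, 3 of 17 rose in complex V, and none of the 4 genes of complex II or the 16 of complex IV was called by edgeR. At an unadjusted p under 0.05 by edgeR there was 1 in complex II and 0 in complex IV, beside 4996 of the 12916 genes.

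In the core of complex I, Ndufs1 was at 10.5, 10.3 and 10.2 FPKM in fibronectin IgG and at 12.8, 12.4 and 12.7 FPKM in fibronectin anti-ITGA5. The groups were well apart, with a log2 fold change of 0.29 (SE 0.043, adjusted p = 0.000352, edgeR), which is 1.22-fold on both surfaces, and the call held when any of the 6 libraries was left out. It was the only member called on both surfaces. Ndufv1, the NADH-binding subunit, was not called, with 21.3 ± 0.642 FPKM (SD, n = 3) in fibronectin IgG and 22.9 ± 0.34 FPKM in fibronectin anti-ITGA5 (log2 fold change 0.10, adjusted p = 0.166, edgeR).

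Of the 29 supernumerary subunits of complex I, 1 rose and 3 fell on fibronectin by edgeR, and the others were not called. That is 13.8% of these subunits called, against 27.6% of all genes. Ndufab1 (chr7:122085403-122101886, minus strand), which is also the mitochondrial acyl carrier protein, was at 7.69, 8 and 8 FPKM in fibronectin IgG and at 9.6, 9.96 and 9.09 FPKM in fibronectin anti-ITGA5, with no overlap (log2 fold change 0.27, SE 0.053, adjusted p = 0.0022, edgeR). Ndufa1 (chrX:37187588-37191163, minus strand), a small membrane subunit needed to assemble the complex, went the other way. It was at 93, 87.5 and 86.6 FPKM in fibronectin IgG and at 73.3, 75.6 and 73.5 FPKM in fibronectin anti-ITGA5, again without overlap, and its log2 fold change was -0.27 (SE 0.062, adjusted p = 0.00732, edgeR). Ndufab1 and Ndufa1 kept their calls whichever library was left out.

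Ndufa6 and Ndufa8 fell by less. Ndufa6, an accessory subunit of the family that binds the acyl carrier protein, was at 24.8, 25.3 and 22.6 FPKM in fibronectin IgG and at 20.2, 21.9 and 20.5 FPKM in fibronectin anti-ITGA5 (log2 fold change -0.22, SE 0.065, adjusted p = 0.0253, edgeR). Ndufa8, an accessory subunit facing the intermembrane space, was at 96.4, 91.2 and 91.6 FPKM in fibronectin IgG and at 88.8, 81.6 and 77.8 FPKM in fibronectin anti-ITGA5 (log2 fold change -0.17, SE 0.056, adjusted p = 0.0376, edgeR). In both genes every antibody library lay under every IgG library. Ndufa6 kept its call in 3 of the 6 fits that leave out 1 library, and Ndufa8 in 1 of 6.

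Of the assembly factors of complex I, Ndufaf6 and Ndufaf8 rose. Ndufaf6 (chr4:11051045-11076205, minus strand) was at 4.58, 5.06 and 5.11 FPKM in fibronectin IgG and at 6.84, 6.74 and 6.56 FPKM in fibronectin anti-ITGA5 (log2 fold change 0.45, SE 0.12, adjusted p = 0.012, edgeR). Ndufaf8 (chr11:120098928-120100705, plus strand) was at 14.4, 13.7 and 16 FPKM and at 18.9, 19.8 and 18.1 FPKM (log2 fold change 0.37, SE 0.093, adjusted p = 0.0113, edgeR). Neither gene overlapped between the groups. Leaving out fibronectin IgG replicate 1 ended the call of Ndufaf6 (adjusted p = 0.0534), and leaving out fibronectin IgG replicate 2 ended that of Ndufaf8 (adjusted p = 0.0514). All 8 assembly factors had a log2 fold change above 0 on fibronectin, from 0.068 to 0.45, with 2 of the 8 called (25%, against 27.6% of all genes).

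**Figure D3:**
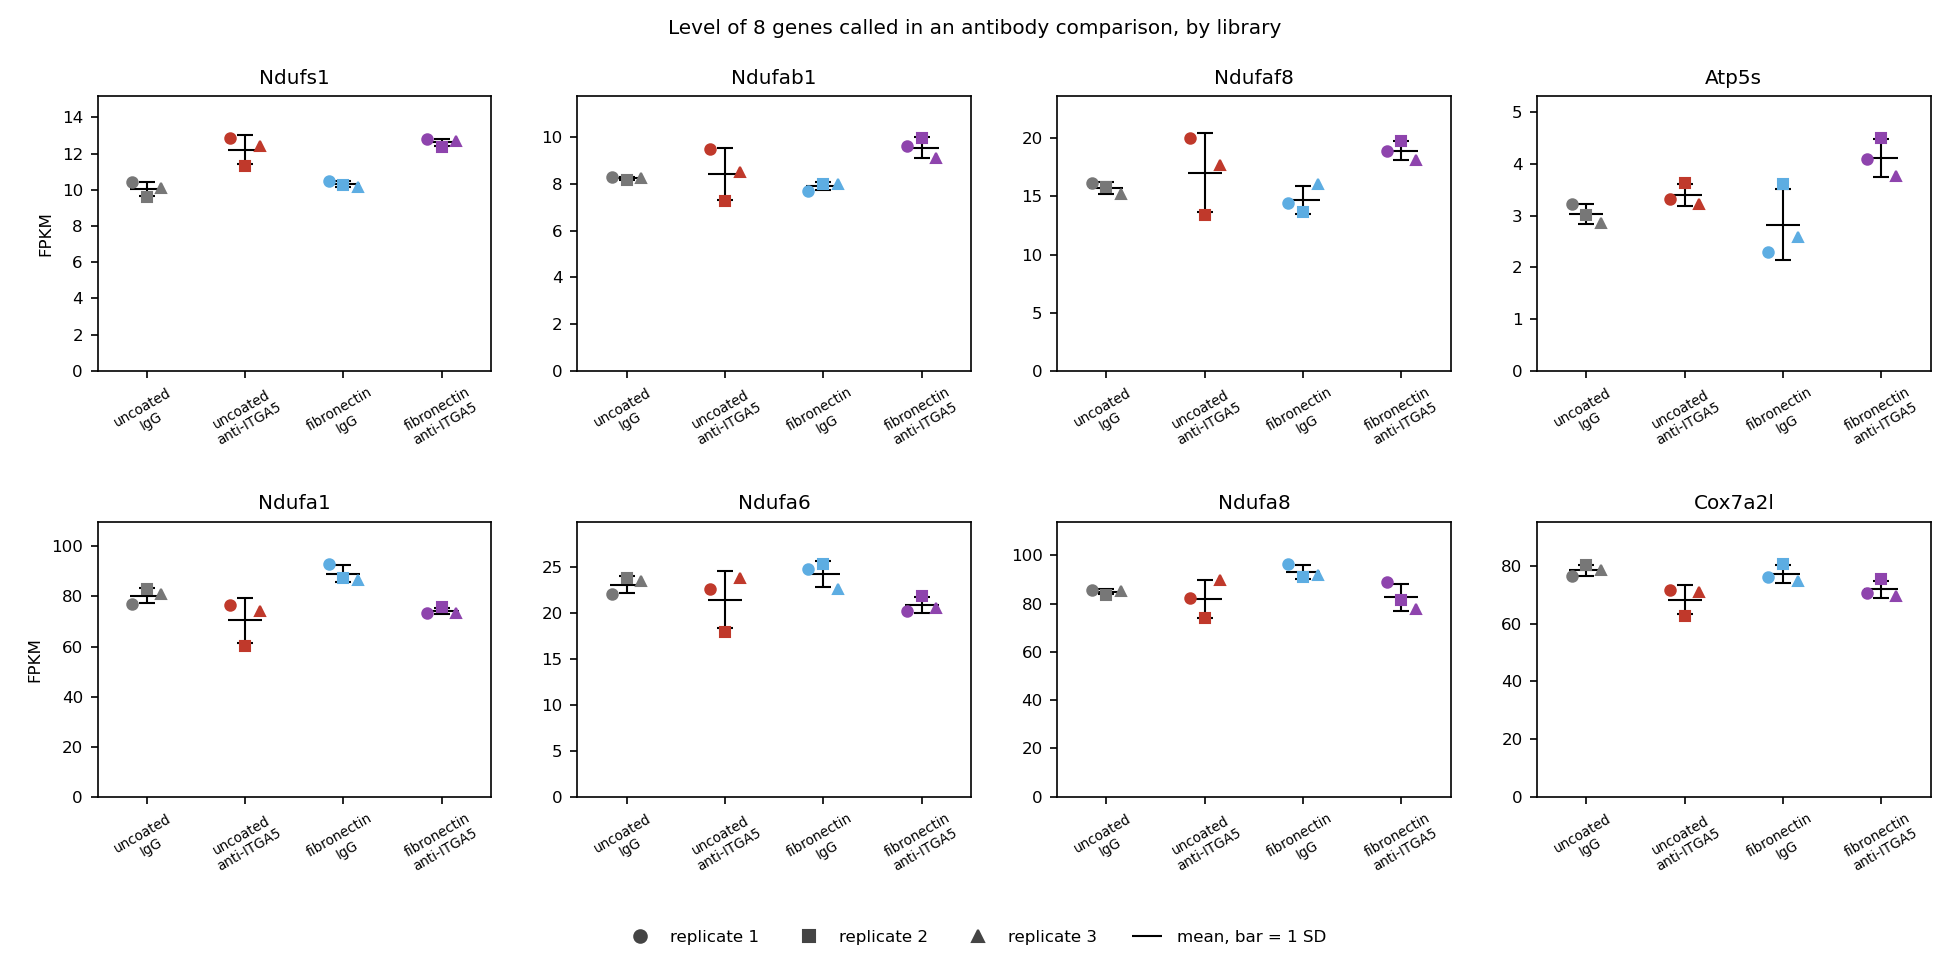
FPKM (y axis) of 8 genes called in an antibody comparison, in the 4 groups (x axis), with 1 point per library, a line at the mean and bars of 1 SD. Ndufs1 is higher with anti-ITGA5 on both surfaces, Ndufab1, Ndufaf8 and Atp5s are higher on fibronectin, and Ndufa1, Ndufa6 and Ndufa8 are lower there; Cox7a2l was called lower on uncoated dishes.

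In complex III the core protein Uqcrc1 (chr9:108936633-108949623, plus strand) was at 42.2, 41.4 and 39.6 FPKM in fibronectin IgG and at 43.6, 45.8 and 45.5 FPKM in fibronectin anti-ITGA5 (log2 fold change 0.13, SE 0.042, adjusted p = 0.0384, edgeR). The groups did not overlap. Its partner Uqcrc2 was at 35.6 ± 0.593 FPKM (SD, n = 3) in fibronectin IgG and at 35.8 ± 0.701 FPKM in fibronectin anti-ITGA5, and the Rieske iron-sulphur protein Uqcrfs1 was at 62.4 ± 0.862 and 67.1 ± 4.29 FPKM, neither of them called. In complex II, Sdha was at 66.2, 67 and 65 FPKM in fibronectin IgG and at 72.1, 73.9 and 68.5 FPKM in fibronectin anti-ITGA5, without overlap, and just missed the threshold (log2 fold change 0.11, SE 0.041, adjusted p = 0.0578, edgeR).

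In complex IV, subunits 4, 5a and 5b were not called. Cox4i1 was at 188 ± 6.44 FPKM (SD, n = 3) in fibronectin IgG and at 187 ± 8.49 FPKM in fibronectin anti-ITGA5, Cox5a at 26.6 ± 0.852 and 26.4 ± 1.13 FPKM, and Cox5b at 79.8 ± 2.41 and 77.2 ± 8.22 FPKM, with overlapping groups. The median log2 fold change of the 16 tested genes of complex IV was 0.00073, and 8 of them had a value above 0.

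Complex V had 3 called members on fibronectin. Atp5s, a factor that couples the ATP synthase and is no subunit of its core, was at 2.29, 3.6 and 2.59 FPKM in fibronectin IgG and at 4.09, 4.51 and 3.77 FPKM in fibronectin anti-ITGA5, which is the largest called rise among the members (log2 fold change 0.53, SE 0.16, adjusted p = 0.0281, edgeR). Atp5b was at 198, 188 and 190 FPKM and at 213, 208 and 202 FPKM (log2 fold change 0.11, SE 0.038, adjusted p = 0.0483, edgeR). Atp5f1, a stalk subunit named after its value was seen, was at 46.6, 46.1 and 43.8 FPKM and at 51.2, 52.4 and 47.9 FPKM (log2 fold change 0.15, SE 0.045, adjusted p = 0.029, edgeR). The groups of all 3 genes did not overlap. Atp5a1 was at 219, 220 and 217 FPKM and at 234, 243 and 223 FPKM and was not called (log2 fold change 0.093, adjusted p = 0.104, edgeR). Atp5s kept its call in 2 of the 6 fits that leave out 1 library, and Atp5b, Atp5f1 and Uqcrc1 in 1 of 6 each.

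The count of members that rose on fibronectin also turned on single libraries. It was 15 without fibronectin anti-ITGA5 replicate 3, which had the lowest summed level of its group in each of the 5 complexes. Leaving out such a library raises the members by construction, and in that fit 2065 of all 13219 genes were called higher. The count of members that rose was 4 without fibronectin IgG replicate 1, 2 or 3 or without fibronectin anti-ITGA5 replicate 2, and 5 without fibronectin anti-ITGA5 replicate 1. The count that fell was 1 without fibronectin IgG replicate 1 and 2 without any of the other 5 libraries. The share of all genes called was 18.4% to 30% in these fits.

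Scaling moved the split between directions. With libraries scaled by their total counts in place of TMM, 0 members were lower and 6 higher on uncoated dishes, and 1 was lower and 13 were higher on fibronectin. The same scaling gave 940 lower and 1838 higher genes of all on uncoated dishes, against 1265 and 1419 by TMM, and 1264 and 2407 on fibronectin, against 1699 and 1866.

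How many members had FPKM values that did not overlap between the antibody and IgG groups depended, on uncoated dishes, on 1 library. With all libraries 4 of the 88 tested members lay wholly above IgG (4.55%, against 18.7% of genes tested) and 3 wholly below (3.41%, against 19.4%). Without uncoated anti-ITGA5 replicate 2, an alternative chosen after seeing the data, 58 lay wholly above (65.9%, against 27.8%) and 3 wholly below (3.41%, against 26.8%). With 2 libraries in a group the values overlap less often by construction. On fibronectin 16 of 89 lay wholly above (18%, against 21.7%) and 4 wholly below (4.49%, against 20.6%). In an exact permutation test, 3 libraries against 3 cannot give a 2-sided p under 0.1, so no p is given for these values.

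The antibody comparisons on the 2 surfaces were set against each other by the interaction of antibody and coating over all 12 libraries. None of the 89 members was called by edgeR's test of the interaction, where 3 of 13455 genes were (0.0223%). At an unadjusted p under 0.05 in that test there were 2 of the 89 members and 386 of the 13455 genes. The 3 members with the smallest p were Ndufaf6 (0.47, SE 0.15, unadjusted p = 0.00732, adjusted p = 1, edgeR), Ndufab1 (0.23, SE 0.10, unadjusted p = 0.0365, adjusted p = 1) and Ndufb2 (0.47, SE 0.24, unadjusted p = 0.0644, adjusted p = 1), each given as the log2 fold change on fibronectin minus that on uncoated dishes. Ndufaf6 was at 5.44, 5.49 and 5.64 FPKM in uncoated IgG and at 4.8, 5.76 and 5.64 FPKM in uncoated anti-ITGA5, with overlap. Members called on 1 surface are thus not shown to respond differently on the other. The count stayed at 0 without uncoated anti-ITGA5 replicate 2, where 3 of 13723 genes were called (0.0219%). The members' median of the interaction went from -0.023, with 51 values below 0 and 38 above, to -0.093, with 70 below and 19 above, against 0.0027 in all genes of that fit.

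Fibronectin itself was compared with no coating in IgG. With all 6 libraries and the low-count filter, none of the 89 members was called by edgeR, and none by DESeq2 or limma, where 0.449% of 12925 genes were called by edgeR. By edgeR 17 of the 89 members were at an unadjusted p under 0.05, as were 1266 of the 12925 genes. By edgeR, 2 members were called higher with every gene of at least 1 count (0.941% of all genes called), 6 with the replicate number as a block (3.22%), and 1 without fibronectin IgG replicate 2 (0.766%). The direction was mostly upward, with 74 of 89 values above 0 and a median log2 fold change of 0.057, against -0.00062 in all genes. FPKM values lay wholly above those of uncoated IgG for 26 of the 89 members (29.2%, against 8.80% of genes tested) and wholly below for 2 (2.25%, against 6.61%). Ndufa1 was at 77.1, 82.8 and 81 FPKM in uncoated IgG and at 93, 87.5 and 86.6 FPKM in fibronectin IgG. Cox4i1 was at 180, 169 and 175 FPKM and at 195, 184 and 184 FPKM. The sums of the complexes moved with them, for complex V from 1000, 1010 and 1010 FPKM to 1070, 1030 and 1030 FPKM. The log2 fold changes ran from -0.32 to 0.24, and the 2 members wholly below were Ndufab1 and Ndufaf6. DESeq2 gave an adjusted p to 36 of the 89 members only. The IgG libraries on fibronectin serve both this comparison and the antibody comparison on fibronectin, and those on uncoated dishes serve both this and the antibody comparison there.

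In anti-ITGA5, fibronectin against no coating gave 0 called members of 89 by edgeR, as for all 12863 genes tested (0%). At an unadjusted p under 0.05 by edgeR there were 3 of the 89 members and 461 of the 12863 genes. Without uncoated anti-ITGA5 replicate 2 the count was 0 as well, and the median log2 fold change of the members went from 0.051 to -0.014. With all libraries, FPKM lay wholly above for 5 members (5.62%, against 5.79% of genes tested) and wholly below for 0 (against 3.95%).

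**Figure D4:**
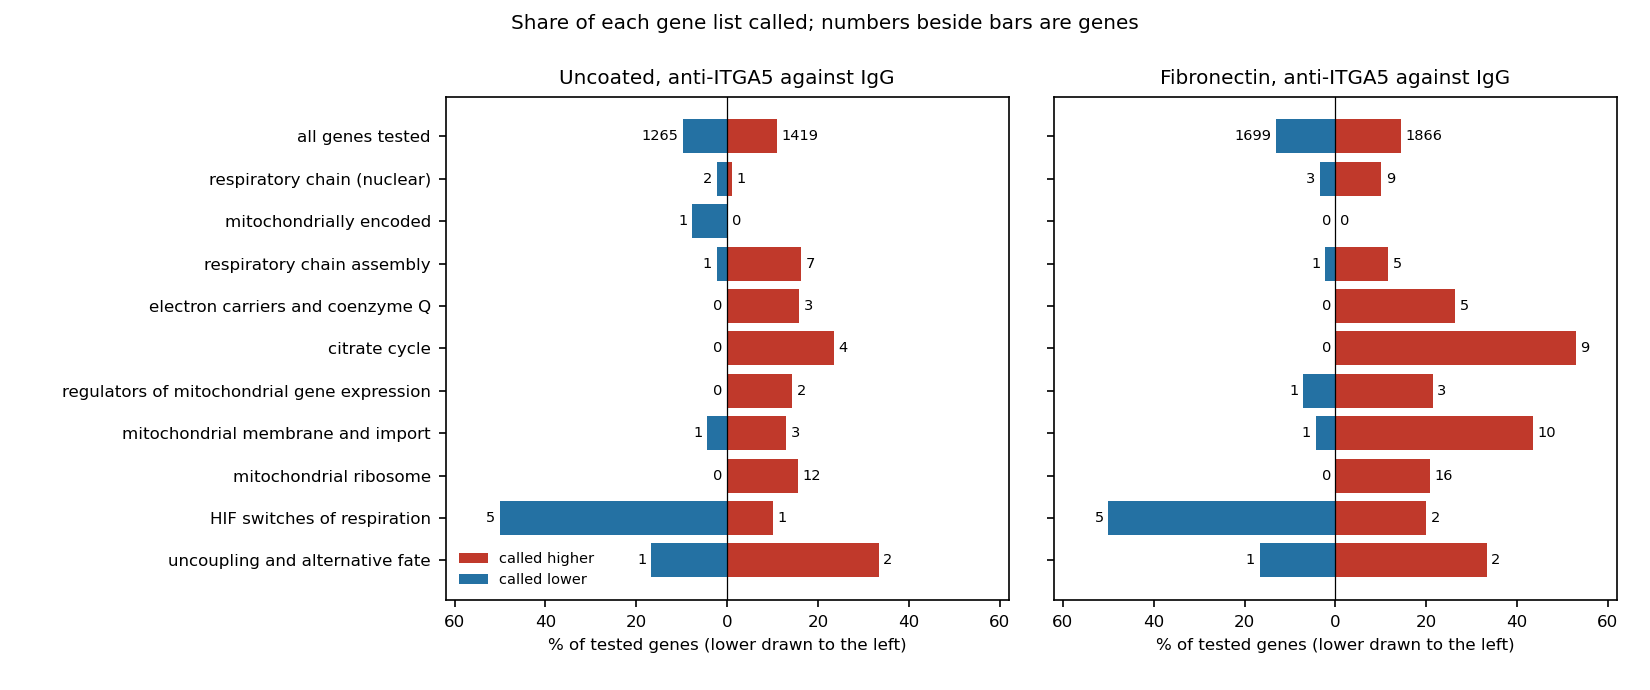
Share of tested genes called (x axis, higher to the right and lower to the left, in % of genes tested) in each gene list (y axis) upon ITGA5 neutralization on uncoated dishes and on fibronectin; numbers beside bars are genes. The nuclear respiratory chain genes have 2 lower and 1 higher on uncoated dishes and 3 lower and 9 higher on fibronectin, while the HIF switches have 5 lower genes on each surface.

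Other genes of mitochondrial respiration were read beside the members, by counts over fixed lists. Of the 13 subunits encoded in mitochondrial DNA, 1 fell and 0 rose on uncoated dishes (mt-Co2, log2 fold change -0.27, adjusted p = 0.0339, edgeR). That is 7.69% of the list called, against 20.8% of all genes. On fibronectin 0 were called, against 27.6% of all genes. There 4 of the 13 were at an unadjusted p under 0.05 by edgeR, as were 4996 of all 12916 genes. The call of mt-Co2 was lost when any 1 library other than uncoated anti-ITGA5 replicate 3 was left out. On fibronectin 4 of the 13 were called higher without fibronectin anti-ITGA5 replicate 3. In that fit 30% of all 13219 genes were called, 2065 of them higher. Libraries were made from oligo(dT)-enriched RNA, so the levels of these transcripts also depend on their polyadenylation. Of 43 assembly factors outside the members' names, 7 rose and 1 fell on uncoated dishes and 5 rose and 1 fell on fibronectin. That is 18.6% and 14% of the list called, against 20.8% and 27.6% of all genes. Cmc2, which helps to build complex IV, rose by 0.70 and 0.68 on the log2 scale (adjusted p = 0.000933 and 0.00056, edgeR), and the complex I factor Tmem186 by 0.49 and 0.50 (adjusted p = 0.00407 and 0.00136).

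Genes that feed and carry electrons were read in 2 lists. Of 19 genes of electron carriers and coenzyme Q, 3 rose on uncoated dishes and 5 on fibronectin, and none fell (15.8% and 26.3% of the list, against 20.8% and 27.6% of all genes called). Pdss1, which makes the tail of coenzyme Q, rose by 0.44 and 0.54 (adjusted p = 0.032 and 0.00256, edgeR), and Dhodh, which passes electrons to coenzyme Q from pyrimidine synthesis, by 0.45 and 0.39 (adjusted p = 0.00978 and 0.00465). Of 17 genes of the citrate cycle and pyruvate dehydrogenase, 4 rose on uncoated dishes and 9 on fibronectin, and none fell (23.5% and 52.9% of the list), with Suclg1 up by 0.25 and 0.31 (adjusted p = 0.0186 and 0.00062). Of 77 genes of the mitochondrial ribosome, 12 rose and 0 fell on uncoated dishes (15.6%, where 1419 of all 12924 genes rose) and 16 rose and 0 fell on fibronectin (20.8%, where 14.4% of all genes rose). Without uncoated anti-ITGA5 replicate 2, 32 of 77 ribosomal, 9 of 17 citrate cycle and 10 of 23 membrane and import genes rose on uncoated dishes, where 15.1% of all genes rose. Of 23 genes of membrane and import, 3 rose and 1 fell on uncoated dishes and 10 rose and 1 fell on fibronectin (17.4% and 47.8% of the list called), with the import subunit Timm50 up by 0.28 and 0.32 (adjusted p = 0.00763 and 0.000696) and the fusion protein Opa1 down, at -0.22 and -0.23 (adjusted p = 0.0138 and 0.00224).

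Among 10 tested genes of a list of HIF switches of respiration, 5 fell and 1 rose on uncoated dishes, and 5 fell and 2 rose on fibronectin, where 9.79% and 13.2% of all genes fell. Bnip3, which marks mitochondria for removal, was at -0.63 and -0.45 (adjusted p = 0.000295 and 0.000573, edgeR), and Pdk2, a kinase that shuts pyruvate dehydrogenase, at -0.80 and -0.51 (adjusted p = 0.00143 and 0.0278). Pdk3, a kinase of the same family, rose on fibronectin by 0.61 (adjusted p = 0.000586). Of the 6 tested genes of uncoupling and oxidant defense, 2 rose (Prdx3 and Sod2) and 1 fell (Gpx4) on each surface, which is 50% of the list, against 20.8% and 27.6% of all genes called. On uncoated dishes without anti-ITGA5 replicate 2, the counts of higher and lower genes were the same as with it for the assembly factors, the HIF switches, this list and the regulators, and the electron carriers had 5 higher in place of 3.

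The transcription factors whose letters were searched in the promoters were measured as well, with other regulators. Of the 14 regulators tested, 2 were called on uncoated dishes (14.3%, against 20.8% of all genes). On fibronectin 4 of the 14 were called (28.6%, against 27.6%). Whether their levels bear on the members was not tested. Nrf1 rose, from 2.5 ± 0.15 to 3.57 ± 0.293 FPKM (SD, n = 3) on uncoated dishes and from 2.58 ± 0.156 to 3.38 ± 0.108 FPKM on fibronectin (log2 fold change 0.51 and 0.39, adjusted p = 0.00156 and 0.00121, edgeR). Hcfc1, a cofactor of several of these factors, rose by 0.17 and 0.24 (adjusted p = 0.0383 and 0.00243). On fibronectin the GABP subunit Gabpb1 rose by 0.24 (adjusted p = 0.0171), and Esrra, an estrogen-related receptor, was at -0.19 (adjusted p = 0.0329). Leaving out 1 library ended the call of Hcfc1 on uncoated dishes in 5 of 6 fits. The other tested regulators, Ppargc1b, Pprc1, Gabpa, Yy1, Tfam, Tfb1m, Tfb2m, Polrmt, Myc and Hif1a, were called on neither surface. Gabpa was at 12 ± 0.616 and 12 ± 0.0606 FPKM on uncoated dishes, and Tfam, which packs and transcribes mitochondrial DNA, was at 6.11 ± 0.0578 and 5.94 ± 0.163 FPKM there. Ppargc1a, a coactivator, was at or near 0 in all groups and was not tested.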

How the data were processed

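RNA-seq was analysed in 12 libraries, 3 in each of 4 groups taken from the labels. The authors deposited counts per gene without normalization, and FPKM, in which the authors divided counts by gene length and a library total. Per the submitters' processing notes, reads were handled with TopHat2 2.0.9, HTSeq 0.6.1 and Cufflinks 2.1.1 on GRCm38.p6. The strand setting of counting is not given in the sources used here, and 33 members share exon bases with another gene in GENCODE M21. Members and lists were chosen with earlier results of these data known.

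Counts were tested with edgeR 4.0.16 in R 4.3.3 (TMM, filterByExpr with a minimum count of 10 and minimum total of 15, quasi-likelihood test, Benjamini-Hochberg adjustment over all genes tested, threshold 0.05), on the libraries of each comparison only. The study tested counts with DESeq2 and the same threshold; here DESeq2 1.42.0 was an alternative, as were limma 3.58.1 and the settings in the closing section. Intervals are at 95%. The pipeline was tested on simulated data. The limit that a count of 0 allows covers counting error only. Named were fixed core subunits and isoform pairs, the 5 largest called rises and falls per comparison, the 3 smallest interaction p-values and members at the filter, with the 3 largest called changes of the other lists and all tested regulators. Some genes are counted with the members and lists but are not reported here by name.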

Additional observations from a re-analysis of the deposited data

How the results depend on the processing

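The median half-width of the members' 95% intervals was 0.18 on uncoated dishes and 0.14 on fibronectin on the log2 scale. The direction of the members' median stayed above 0 in both antibody comparisons under all settings run, from 0.012 to 0.133 and from 0.011 to 0.076 with 1 library left out. On uncoated dishes (2 lower, 1 higher), lower members were 0 by DESeq2, total counts, limma on log2(FPKM + 1) or log2(FPKM + 0.1), and limma without a filter, and 1 with every gene of at least 1 count. Higher members were 6 by total counts, 2 with every gene of at least 1 count, 2 by limma on log2 CPM with the length trend removed, 3 with all 12 libraries in one fit and 0 by limma without a filter. With 1 library left out they ranged from 0 to 2 lower and from 1 to 34 higher. On fibronectin (3 lower, 9 higher), lower members were 1 by total counts, 1 by limma without a filter and 1 with all 12 libraries in one fit, and higher members were 5 by each limma fit on FPKM. With 1 library left out they ranged from 1 to 2 lower and from 4 to 15 higher. For fibronectin against no coating in IgG, 2 members were higher with every gene of at least 1 count, and 0 to 1 with 1 library left out. The cause was not tested.

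With the replicate number as a block, 2 lower and 2 higher were called on uncoated dishes, 5 lower and 14 higher on fibronectin, and 6 higher for fibronectin against no coating in IgG, while all genes called went from 20.8% to 23%, from 27.6% to 35.1% and from 0.449% to 3.22%. Deviations of same-numbered libraries correlated by -0.02 to 0.149, with 5 of 12 above 0.1 and no comparison with all 3 pairs above it, which does not establish that the numbers pair the samples. Among named genes, signs reversed for values that were not called with all libraries. On uncoated dishes Ndufaf6 was 0.012 by total counts and ranged from -0.077 to 0.056 with 1 library left out. Uqcrc1 was -0.0028 by upper quartile factors and -0.0016 with every gene of at least 1 count, and ranged from -0.035 to 0.074. Ndufab1 ranged from -0.047 to 0.125, Ndufa6 from -0.18 to 0.0070 and Ndufa8 from -0.11 to 0.020. On fibronectin Ndufb2 ranged from -0.25 to 0.014. Summed CPM, or leaving out the highest member of a complex, kept uncoated anti-ITGA5 replicate 2 lowest of the 12 libraries in all 5 complexes.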
